A study of Mus musculus with 17 samples.

Results

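The interferon-gamma-induced GTPases were described here by 10 genes, taken by symbol from a list of names: the guanylate-binding protein genes Gbp2, Gbp3, Gbp5, Gbp6, Gbp7 and Gbp9, and the immunity-related GTPase genes Igtp, Irgm1, Irgm2 and Iigp1. All 10 were found among the 49315 genes of the liver files and among the 15632 genes listed in at least 1 hepatocyte file, and all 10 passed the filter on low counts in both experiments, Gbp5 in hepatocytes only through the tKO and dKO libraries. RNA was sequenced from hepatocytes that had been isolated with collagenase from mice of 2 months, in 3 libraries labelled Sms1/Sms2/Smsr-tKO (tKO, triple knockout), 3 labelled Sms1/Sms2-dKO (dKO, double knockout) and 3 labelled WT. It was also sequenced from liver of mice kept for 16 weeks on a high-fat diet with fructose in the drinking water, in 4 libraries labelled SMSrKO and 4 labelled WT, all of them on this diet. Sms1, Sms2 and Smsr are the genes Sgms1, Sgms2 and Samd8, which encode the sphingomyelin synthases and their relative SMSr. The labels do not say whether the lesions were made in the whole animal or in hepatocytes, what diet the hepatocyte donors had, how old the liver donors were, or the sex of either.

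Hepatocyte libraries held 9221488 to 9665309 expected counts each, and liver libraries 24391627 to 47351126 counts. RNA of the targeted genes was lower only for Sgms2 in hepatocytes: Samd8 stood at 14.3 to 15.0 FPKM in tKO, 10.8 to 12.5 in dKO and 9.40 to 10.5 in WT libraries, and at 13.6 to 17.6 TPM in SMSrKO and 10.5 to 16.1 in WT liver. Sgms1 stood at 17.2 to 19.0, 26.1 to 29.0 and 13.8 to 15.6 FPKM in tKO, dKO and WT hepatocytes, and Sgms2 at 25.5 to 27.6, 23.1 to 28.6 and 30.3 to 33.1 FPKM. These values cover whole genes, where a lesion of part of a gene need not show, so the groups are called by their labels throughout and every direction given rests on those labels. The extract protocol names subcutaneous fat (sWAT) for the SMSrKO experiment and the tissue label names liver. In the liver libraries the 5 adipocyte genes checked summed to 0.318 to 1.89 CPM in SMSrKO and 0.317 to 2.55 in WT, against 85010 to 95300 and 66080 to 74900 CPM for 10 hepatocyte genes. The protocol counts 3 animals per hepatocyte group, and nothing ties each liver library to its own animal, so p-values measure only the spread between libraries, and that spread may be technical. As a common coefficient of variation beyond counting error, the spread was 3.52% in hepatocytes and 20.3% in liver.

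Interferon-gamma binds the receptor made of IFNGR1 and IFNGR2, and the kinases JAK1 and JAK2 pass the signal on to transcription factors that bind GAS elements, while type I interferon acts through a complex with IRF9 that binds ISRE elements. Guanylate-binding proteins are large GTPases that assemble on the vacuoles of intracellular parasites and bacteria and on free bacteria, and they promote caspase-11 inflammasome activation. Immunity-related GTPases fall into effectors such as Iigp1, which load on the vacuole membrane of Toxoplasma gondii and disrupt it, and the regulators Irgm1, Irgm2 and Igtp (Irgm3), which sit on host membranes and keep the effectors off them. Hepatocytes express both families when exposed to interferon-gamma.

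The genes lay in clusters. In the coordinates of the liver files (GRCm38), Gbp5, Gbp7, Gbp3 and Gbp2 lay on chromosome 3 between 142493978 and 142638008, on the plus strand. Gbp9 (105077630 to 105139539) and Gbp6 (105270702 to 105293698) lay on the minus strand of chromosome 5. On chromosome 11, Irgm1 lay at 48861968 to 48871683 on the minus strand, and Igtp (58199556 to 58207591) and Irgm2 (58199618 to 58222782) overlapped on the plus strand. Iigp1 lay on another chromosome. Family members share sequence: of all 50-base windows of the annotated transcripts, 70.7% of those of Gbp6 were also found in another gene (65% in Gm43302), 12.7% for Gbp7, 11.8% for Igtp (all in Irgm2), and 0.379% to 8.05% for the other 7 genes. Values of Gbp6 are therefore uncertain, because the counting could have split its reads. In liver, Gm43302 held 2 counts over the SMSrKO and 4 over the WT libraries, where Gbp6 held 871 and 966.

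Promoters are shown because the genes moved together in hepatocytes. RefSeq windows from 250 bases before to 50 bases after the start of transcription (GRCm38.p6) were matched for 7 of the 10 genes. They were searched on both strands for an ISRE, spelled GAAA, any 2 bases, GAAA, and a GAS, spelled TTCNNNGAA, which reads alike on both strands. All 7 genes held at least 1 ISRE in a window, against 3.44% of all 32851 windows, and 4 (Gbp5, Gbp7, Igtp and Irgm2) also held a GAS, against 8.3%. Both motifs stood in 0.454% of all windows. The 150 bases before the start are given for the pair with the highest fold changes at high counts, Gbp2 and Gbp3, and for the 3 Irgm genes. Capitals mark ISRE and GAS matches, and each line gives the gene strand 5′ to 3′.
Gbp2, chr3:142620513-142620662, plus strand: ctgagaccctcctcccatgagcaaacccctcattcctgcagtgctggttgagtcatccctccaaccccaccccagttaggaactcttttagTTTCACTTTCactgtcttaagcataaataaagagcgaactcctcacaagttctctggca
Gbp3, chr3:142559894-142560043, plus strand: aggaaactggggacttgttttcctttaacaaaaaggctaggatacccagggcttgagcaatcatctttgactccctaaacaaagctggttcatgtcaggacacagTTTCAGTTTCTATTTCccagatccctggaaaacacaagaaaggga
Igtp, chr11:58199406-58199555, plus strand: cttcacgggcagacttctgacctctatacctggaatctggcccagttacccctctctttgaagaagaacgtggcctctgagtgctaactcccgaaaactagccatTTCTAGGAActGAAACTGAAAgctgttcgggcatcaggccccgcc
Irgm2, chr11:58214827-58214976, plus strand: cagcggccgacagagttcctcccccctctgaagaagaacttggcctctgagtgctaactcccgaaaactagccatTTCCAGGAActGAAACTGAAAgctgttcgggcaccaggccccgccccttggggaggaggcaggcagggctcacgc
Irgm1, chr11:48871421-48871570, minus strand: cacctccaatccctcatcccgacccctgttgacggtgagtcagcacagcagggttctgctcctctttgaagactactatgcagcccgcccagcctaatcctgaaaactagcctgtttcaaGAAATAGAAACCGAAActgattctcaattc

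In Gbp2 and Gbp3 the ISRE stood on the opposite strand, beginning 59 and 45 bases before the start, and in Gbp3 and Irgm1 a second ISRE overlapped the first. The ISRE of Igtp began 34 bases and that of Irgm2 64 bases before the start, and in both a GAS began 11 bases ahead of it. Aligned at this shift of 30 bases, the windows of Igtp and Irgm2 were identical at 184 of 270 positions (68.1%), with a longest shared run of 61 bases. The same spacing of 11 bases was found in Tgtp1 and Tgtp2, T cell-specific GTPases of the same family that are not among the 10. Of 7 windows of other family genes, 5 held an ISRE, and those of Irgq and 9930111J21Rik2 held none. For comparison, an ISRE was found in 12 of 21 genes with a window on a list of type I interferon-induced genes and in 3 of 18 on a list of other interferon-gamma targets. A match of letters is a description of the window and shows no binding.

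**Figure D1:**
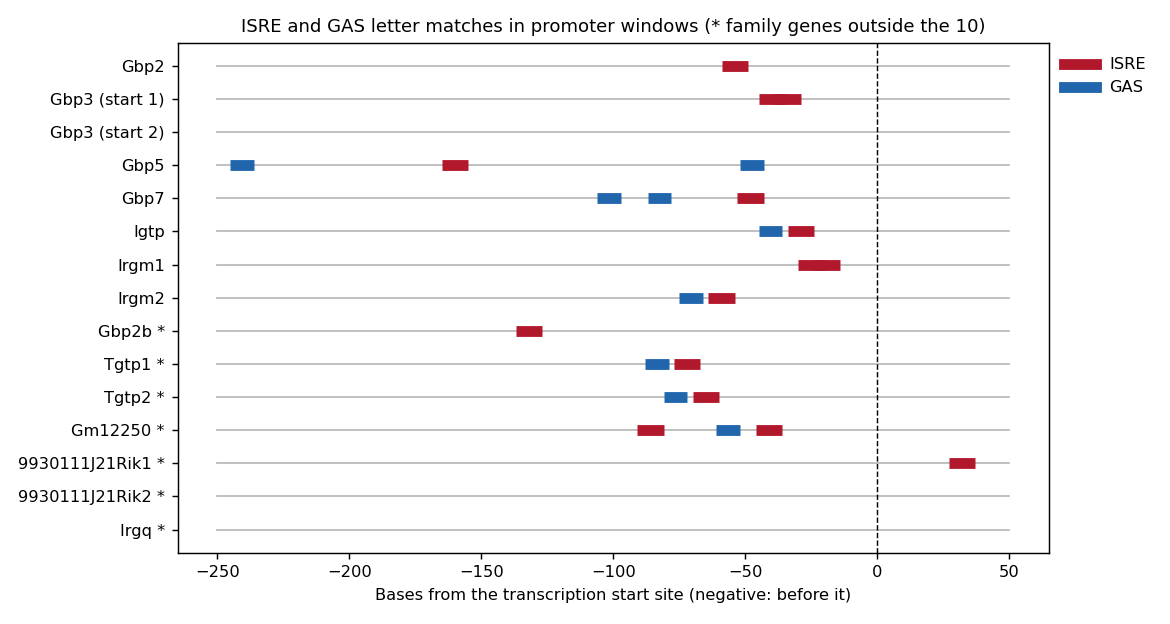
Letter matches of ISRE (red) and GAS (blue) in the promoter windows, drawn by distance in bases from the start of transcription (dashed line), with 1 line per window and an asterisk for family genes outside the 10. The ISRE matches of Gbp2, Gbp3, Gbp7, Igtp, Irgm1 and Irgm2 lie within 64 bases before the start, and that of Gbp5 begins 165 bases before it.

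Hepatocytes labelled tKO and dKO held more RNA of all 10 GTPases than those labelled WT. Summed over the 10 genes, the level was 759 ± 37.3 FPKM in tKO, 686 ± 13.9 in dKO and 402 ± 9.94 in WT (SD, n = 3 each), where FPKM is the level per gene length and depth. The Gbp genes rose more in relative terms: the ratio of summed Gbp to summed Irg FPKM was 0.375 to 0.383 in tKO, 0.369 to 0.373 in dKO and 0.149 to 0.154 in WT libraries. These sums and ratios are descriptions with no test, since the genes were chosen with earlier results known.

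Gbp2, which acts against Toxoplasma, stood at 68.7, 65.6 and 68.9 FPKM in the tKO libraries, 59.4, 59.9 and 63.4 in dKO and 12.0, 11.6 and 11.8 in WT. Gbp3 followed at 80.6, 74.1 and 77.3 FPKM in tKO, 66.96, 67.5 and 70.3 in dKO and 14.6, 15.6 and 15.7 in WT. The 3 groups did not overlap for either gene, with tKO highest. Against WT, Gbp2 rose by 2.49 ± 0.0599 log2 in tKO (SE; adjusted p = 2.67e-52) and 2.36 ± 0.0606 in dKO (adjusted p = 3.84e-50). Gbp3 rose by 2.30 ± 0.0551 in tKO (adjusted p = 1.98e-52) and 2.15 ± 0.0558 in dKO (adjusted p = 7.75e-50), in the edgeR quasi-likelihood test with adjustment over 11471 genes.

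Gbp5, which promotes the NLRP3 inflammasome in macrophages, and Gbp9 were the least abundant. Gbp5 stood at 0.88, 0.60 and 0.60 FPKM in tKO, 1.12, 0.94 and 0.76 in dKO and 0.07, 0.11 and 0.11 in WT. These levels rest on 59, 78 and 8 expected counts summed over the tKO, dKO and WT libraries, so that Gbp5 passed the count filter only through tKO and dKO and had to differ from WT once tested. Its values against WT are therefore given as a description, with no test. Gbp9 stood at 6.46, 5.21 and 5.31 FPKM in tKO, 5.50, 5.21 and 5.95 in dKO and 0.52, 0.78 and 1.03 in WT. For both genes tKO and dKO overlapped and lay above WT. Gbp9 rose by 2.83 ± 0.159 log2 in tKO and 2.83 ± 0.16 in dKO (adjusted p = 1.61e-27 and 2.84e-27).

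Gbp6 and Gbp7 rose less. Gbp6 stood at 34.6, 32.2 and 30.5 FPKM in tKO, 28.0, 26.5 and 29.1 in dKO and 11.4, 12.1 and 13.0 in WT, a rise of 1.39 ± 0.058 log2 in tKO and 1.19 ± 0.059 in dKO. Gbp7 stood at 26.8, 23.4 and 23.4 FPKM in tKO, 22.3, 22.3 and 21.3 in dKO and 12.0, 12.6 and 13.0 in WT, a rise of 0.93 ± 0.0552 and 0.80 ± 0.056 log2. Their adjusted p-values against WT lay between 1.54e-35 and 7.07e-22.

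The Irg genes were the more abundant family in every hepatocyte library. Igtp stood at 143, 134 and 142 FPKM in tKO, 132, 134 and 139 in dKO and 72.7, 79.6 and 78.8 in WT, with tKO and dKO overlapping. Irgm1, a regulator linked to autophagy, stood at 138, 129.6 and 132 FPKM in tKO, 119, 116 and 123 in dKO and 71.8, 73.4 and 76.1 in WT. Against WT, Igtp rose by 0.83 ± 0.0445 log2 in tKO and 0.81 ± 0.0447 in dKO, and Irgm1 by 0.82 ± 0.0437 and 0.68 ± 0.0441. Irgm2 stood at 78.4, 69.8 and 75.5 FPKM in tKO, 80.4, 73.6 and 74.7 in dKO and 56.7, 58.4 and 59.0 in WT. Its rise was the smallest of the Irg regulators, 0.33 ± 0.0442 log2 in tKO (adjusted p = 8.72e-10) and 0.39 ± 0.0442 in dKO (adjusted p = 4.84e-12). Iigp1, the effector, which lies on the plus strand of chromosome 18 (60376029 to 60392627), was the highest of the 10 in every group, at 222, 192 and 196 FPKM in tKO, 165, 171 and 175 in dKO and 139, 142 and 142 in WT. It rose by 0.50 ± 0.041 log2 in tKO (adjusted p = 4.08e-17) and 0.26 ± 0.0413 in dKO (adjusted p = 1.58e-07), and its share of the summed FPKM was 26.8% in tKO, 24.8% in dKO and 35.0% in WT.

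**Figure D2:**
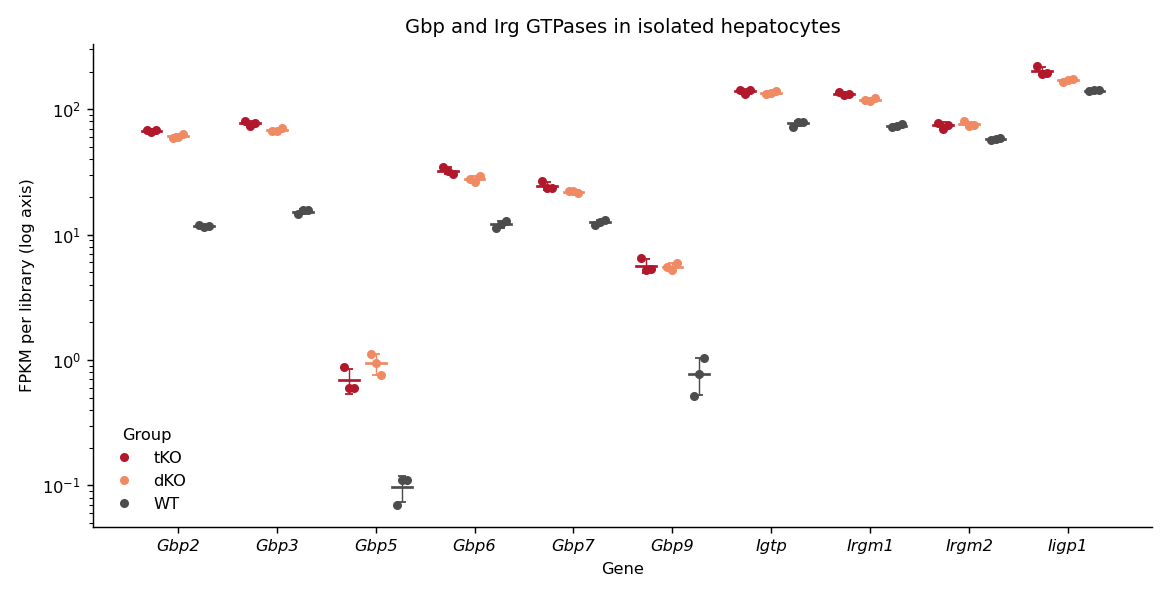
FPKM of the 10 genes in each hepatocyte library on a log axis, with tKO, dKO and WT from left to right for each gene, points for libraries, horizontal bars for the mean and error bars for the SD (n = 3). All tKO and dKO points lie above all WT points of the same gene, from Gbp5 at no more than 1.12 FPKM to Iigp1 at up to 222 FPKM.

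With Gbp5 set aside, the other 9 genes were all called higher in dKO than in WT, where 24% of all 11471 tested genes were called higher, 20% lower and 44% in either direction. The median log2 fold change of the 9 was 0.806 (0.998 with Gbp5), against −0.01 over all tested genes. For tKO against WT, the 9 were again higher, with 25.6% of all genes called higher, 21.8% lower and 47.4% in all, and the medians were 0.934 for the 9 (1.16 with Gbp5) and −0.004 for all genes. In both comparisons the groups did not overlap for any of the 9, against 26.7% of tested genes with non-overlapping higher values for dKO and 27.8% for tKO. Both comparisons use the same 3 WT libraries. Endothelium and macrophage markers were higher in tKO and dKO as well, with the summed levels given with the other cell types. The 9 calls in each comparison were kept when any 1 of the 9 libraries was left out. When the hepatocytes were given the larger spread of the liver libraries (the liver dispersion), Irgm2 and Iigp1 lost the call in tKO (adjusted p = 0.58 and 0.227), and Irgm1, Irgm2 and Iigp1 lost it in dKO (adjusted p = 0.0544, 0.52 and 0.804).

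Across the 10 genes, those with the lowest FPKM in WT had the largest fold changes, with a Spearman rho of −0.867 between WT FPKM and log2 fold change in both comparisons (n = 10 genes). The fold changes are computed from the same WT libraries, so the measures are linked, and no p is given. Gbp5, the gene lowest in WT, passed the count filter only through tKO and dKO, so its high fold change was fixed in part by the filter. On the FPKM scale the order was another: the mean difference of tKO from WT was 55.9 FPKM for Gbp2, 62.0 for Gbp3, 62.5 for Igtp, 59.6 for Irgm1 and 62.3 for Iigp1, while their ratios of means ran from 1.44 to 5.74. The difference of tKO from WT was 20.3 FPKM for Gbp6, 16.5 for Irgm2, 11.9 for Gbp7, 4.88 for Gbp9 and 0.597 for Gbp5. In WT hepatocytes the order of mean FPKM was Iigp1, Igtp, Irgm1, Irgm2, Gbp3, Gbp7, Gbp6, Gbp2, Gbp9 and Gbp5, in which Igtp overlapped Irgm1, and Gbp7, Gbp6 and Gbp2 overlapped in turn. In tKO hepatocytes Gbp3 and Irgm2 overlapped, at 77.3 ± 3.25 and 74.5 ± 4.36 FPKM, where the WT means were 15.3 ± 0.614 and 58.1 ± 1.1997 FPKM (SD, n = 3 each).

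The tKO libraries differ from the dKO libraries by the added Smsr lesion. Between them, 6 of the 10 genes were called higher in tKO and none lower, where 14.3% of tested genes were called higher, 15.2% lower and 29.5% in all. The differences were small: Iigp1 0.23 ± 0.0406 log2 (adjusted p = 3.26e-06), Gbp6 0.20 ± 0.0517 (adjusted p = 0.00192), Gbp3 0.15 ± 0.0452 (adjusted p = 0.00591), Irgm1 0.14 ± 0.0418 (adjusted p = 0.0053), Gbp7 0.13 ± 0.0513 (adjusted p = 0.0391) and Gbp2 0.13 ± 0.0471 (adjusted p = 0.0288). These 6 were also the members whose tKO and dKO libraries did not overlap, in a comparison where 19.6% of tested genes had non-overlapping higher values. The other members were not called: Gbp5 had −0.46 (95% interval −1.01 to 0.092), Gbp9 0.00 (−0.211 to 0.217), Igtp 0.02 (−0.063 to 0.106) and Irgm2 −0.06 (−0.142 to 0.03). The median of the 10 was 0.13, against 0.00 over all tested genes. Leaving out 1 library at a time kept 4 to 6 calls, and Iigp1, Gbp6, Gbp3 and Irgm1 were called each time. Gbp2 lost the call without tKO 7, tKO 9, dKO 4 or dKO 5 and Gbp7 without tKO 7, dKO 4, dKO 5 or dKO 6. DESeq2 called 4, and with the liver dispersion none was called.

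In liver, where SMSrKO was set against WT on the same diet, 0 of the 10 genes were called by edgeR or by DESeq2, and 1 had an unadjusted p under 0.05 in edgeR. There, 37 of 15820 tested genes (0.234%) were called in all, 0.12% higher and 0.114% lower, and 13.1% had an unadjusted p under 0.05. Irgm2 stood at 45.7, 42.8, 42.2 and 41.8 TPM in SMSrKO and 30.2, 37.1, 37.8 and 40.2 TPM in WT. The groups did not overlap, as for 8.12% of tested genes in either direction and 3.79% in the higher one, and the log2 fold change was 0.31 ± 0.0917 (SE; 95% interval 0.101 to 0.509; unadjusted p = 0.00751, adjusted p = 0.21 in edgeR). Gm4951, a family gene on the list of other members, had 86.2 ± 3.24 TPM in SMSrKO and 72.8 ± 6.28 in WT (SD, n = 4 each), a difference of 0.30 ± 0.085 log2 that missed the threshold in edgeR (adjusted p = 0.191) and passed it in DESeq2 (adjusted p = 0.0402).

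The remaining members overlapped between SMSrKO and WT liver. Iigp1 led in both groups, with 194, 147, 171 and 152 TPM in SMSrKO and 108, 183, 172 and 177 in WT, or 51.8% and 52.3% of the summed TPM of the 10. Its log2 difference was 0.12, with a 95% interval of −0.237 to 0.477. Gbp9 stood at 4.33, 4.299, 3.54 and 5.90 TPM in SMSrKO and 4.73, 6.40, 5.68 and 5.62 in WT, a difference of −0.26 (−0.574 to 0.06). Gbp2 stood at 13.5, 8.27, 7.34 and 13.5 TPM in SMSrKO and 8.01, 12.3, 11.8 and 12.7 in WT, a difference of −0.01 (−0.499 to 0.479). Within SMSrKO, libraries 5 and 8 were above libraries 6 and 7 for Gbp2, Gbp3 and Gbp5. The other 6 members differed by −0.07 to 0.23 log2, and the widest interval was that of Gbp6, −0.836 to 0.702. The median difference of the 10 was 0.09, against −0.01 over all tested genes, and it turned to −0.05 without SMSrKO 5. The SD of the 10 genes was 4.11% to 36% of the mean in SMSrKO and 8.65% to 44.7% in WT liver, with medians of 17.1% and 15.8%. In hepatocytes the median was 6.11% in tKO, 3.25% in dKO and 4.01% in WT.

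**Figure D3:**
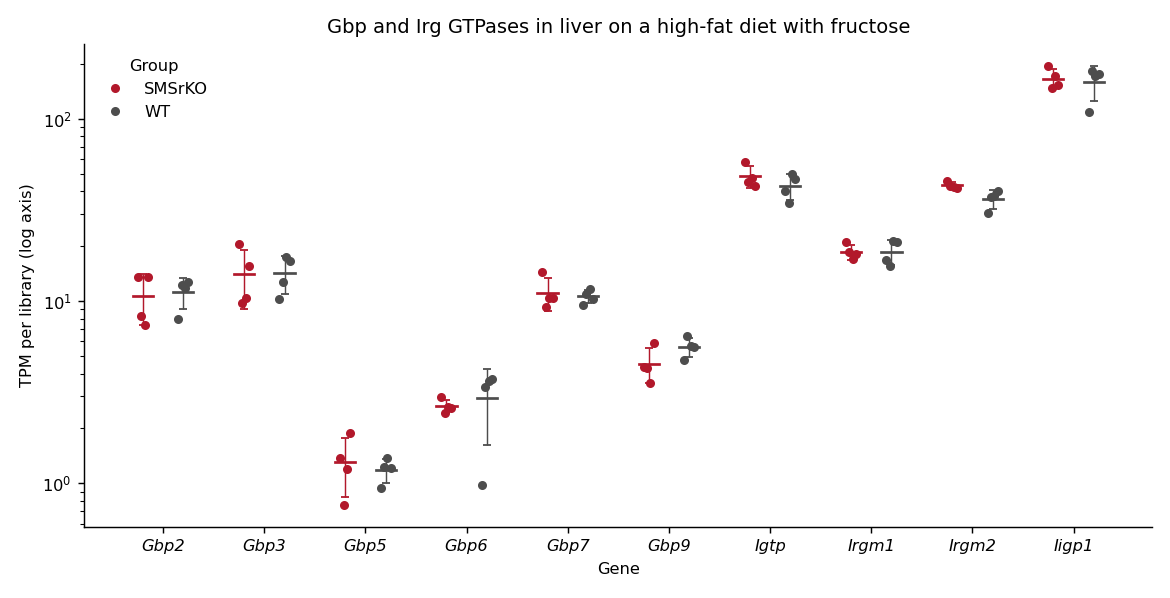
TPM of the 10 genes in each liver library on a log axis, with SMSrKO left of WT for each gene, points for libraries, horizontal bars for the mean and error bars for the SD (n = 4). The groups overlap for 9 genes; for Irgm2 the SMSrKO libraries (41.8 to 45.7 TPM) lie above the WT libraries (30.2 to 40.2 TPM).

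Liver and hepatocyte levels were not set against each other, because the 2 sets of files were counted on different annotations and scaled separately. Within each set, the Irg genes held most of the summed level: the Gbp to Irg ratio in liver was 0.128 to 0.195 in SMSrKO and 0.174 to 0.184 in WT libraries.

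**Figure D4:**
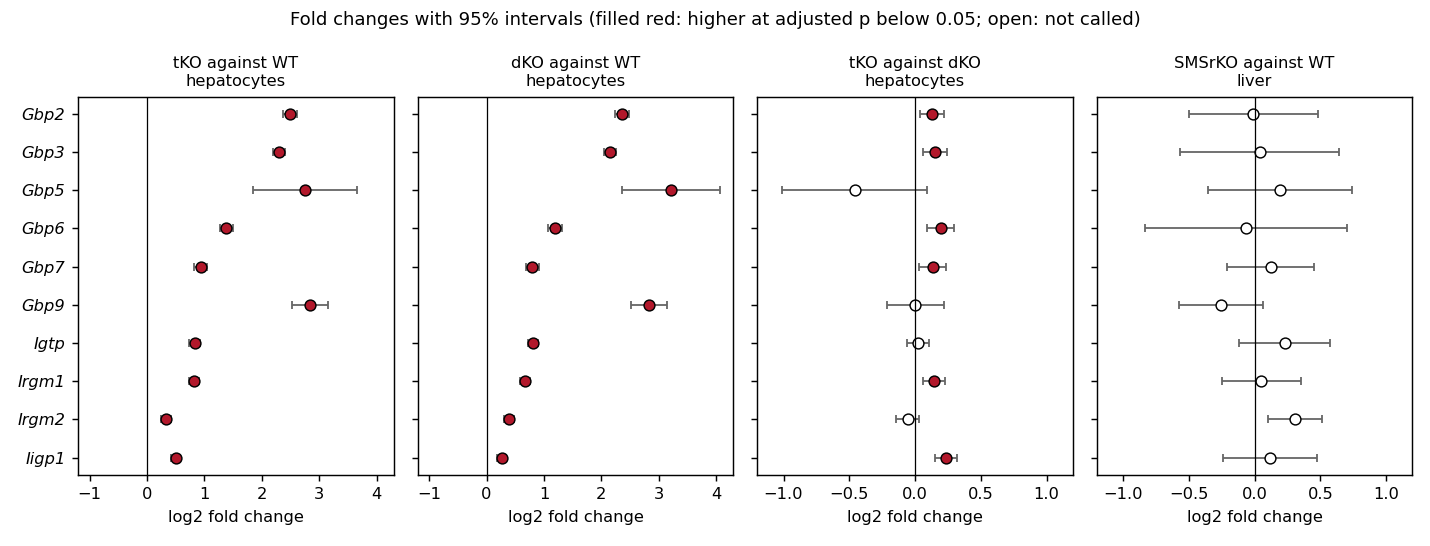
Log2 fold changes of the 10 genes with 95% intervals from edgeR, in tKO against WT, dKO against WT and tKO against dKO hepatocytes and in SMSrKO against WT liver; filled red points were called higher, open points were not called, and the 2 right panels have a narrower axis. All 10 points are filled in the panels against WT hepatocytes, of which Gbp5 passed the count filter only through tKO and dKO, 6 in tKO against dKO and 0 in liver.

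Among other GTPases of the 2 families, 12 of 16 genes were tested in hepatocytes. In dKO 10 were higher than in WT and none lower, and in tKO 10 were higher and 1, Gbp11, was lower (−0.48, adjusted p = 0.0296). One of the 10 in each, Gbp4, had fewer than 10 counts in every WT library and passed the filter only through tKO and dKO, and 9 remain without it. Tgtp2, with 24 expected counts over the WT libraries, also could not have passed on WT alone, and it is kept in the 9. With the liver dispersion 6 and 7 calls were left in dKO and tKO, counted over all 12 tested genes with Gbp4 among them. Tgtp1 rose by 1.556 log2 in tKO and 1.502 in dKO against WT, to 42.5 ± 1.81 and 40.3 ± 0.313 FPKM, with 14.2 ± 0.821 in WT (SD, n = 3 each). Gvin1, a very large interferon-inducible GTPase, stood at 71.5 ± 4.31 FPKM in tKO, 35.4 ± 0.532 in dKO and 12.2 ± 0.896 in WT. It rose by 2.53 log2 in tKO and 1.53 in dKO against WT and by 0.99 in tKO against dKO (adjusted p = 1.87e-32), a comparison in which the largest rise among the 10 was the 0.23 of Iigp1. Gbp10 was also higher in tKO than in dKO, by 0.51 (adjusted p = 0.000893), and Tgtp2 was lower, by −0.95 (adjusted p = 0.000291). All values of Tgtp1 and Tgtp2 are left uncertain, because they are near-identical copies. Irgq, a family member that lacks the interferon response of the others, differed by −0.09 log2 in both tKO and dKO against WT (adjusted p = 0.257 and 0.233).

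Of the ligands, Ifng was not listed in any hepatocyte file and had 9 counts over the 4 SMSrKO and 10 over the 4 WT liver libraries. Ifnb1 had 1 expected count in tKO, 1 in dKO and 0 in WT hepatocytes, each over 3 libraries. Il18, a cytokine that induces interferon-gamma, was the only tested gene of that list, higher by 0.99 log2 in tKO and 0.82 in dKO than in WT (adjusted p = 0.000297 and 0.00408). Tnf had 21, 18 and 0 expected counts and Il15 22, 22 and 3 over the tKO, dKO and WT libraries.

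Receptors and signalling genes moved by less than the GTPases, with medians of 0.26 log2 in tKO and 0.29 in dKO against WT. Of 15 tested, 10 were higher in tKO and 11 in dKO, and 1, Ifnar1, was lower in both (−0.20 and −0.19). With the liver dispersion 1 call was left in each. Irf1, a transcription factor that interferon-gamma induces, rose by 0.23 in tKO and 0.51 in dKO against WT and was lower in tKO than in dKO by −0.27 (adjusted p = 0.000154), opposite in sign to the 6 GTPases called there. Ifngr1 differed by 0.11 in tKO (adjusted p = 0.0829) and rose by 0.27 in dKO (adjusted p = 1.99e-05), and Ifngr2 rose by 0.36 and 0.26.

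Of 10 negative regulators, 6 were higher and 1, Ptpn11, lower than WT in both tKO and dKO, and with the liver dispersion 2 and 3 calls were left. Socs1, which inhibits the JAK kinases, rose by 0.85 log2 in tKO and 1.33 in dKO, and Usp18, which restrains the type I receptor, by 1.09 and 0.86. Between tKO and dKO, Socs1 was lower in tKO by −0.48 (adjusted p = 0.0113) and Usp18 higher by 0.23 (adjusted p = 9.72e-05).

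Other interferon-gamma targets were higher than WT in 22 of 23 tested genes in tKO and 21 of 23 in dKO, with medians of 1.10 log2 in both. Nos2, H2-Aa, H2-Eb1 and Serpina3g had under 10 counts in every WT library and passed the filter only through tKO and dKO. Without these 4 the numbers were 18 and 17 of 19, with medians of 0.90 and 0.908. Cxcl11 and Ubd, with 29 and 28 expected counts over the WT libraries, also could not have passed on WT alone, and they are kept in these numbers. With the liver dispersion 17 calls were left in each comparison, counted over all 23 genes with Nos2, H2-Aa, H2-Eb1 and Serpina3g among them. H2-Ab1 was lower in tKO (−0.86, adjusted p = 0.000489). Nos2, the inducible nitric oxide synthase, had 846, 971 and 14 expected counts over the tKO, dKO and WT libraries. Type I interferon-induced genes were higher in all 28 of 28 tested in both comparisons, with medians of 1.43 in tKO and 1.34 in dKO, and Zbp1, a nucleic acid sensor, rose by 1.82 and 1.64. One of the 28, Oas2, had under 10 counts in every WT library and passed the filter only through tKO and dKO. Without it the numbers were 27 of 27 in both comparisons, with medians of 1.424 in tKO and 1.185 in dKO. Oas1g, with 29 expected counts over the WT libraries, also could not have passed on WT alone, and it is kept in the 27. With the liver dispersion 26 calls were left in tKO and 23 in dKO, counted over all 28. Between tKO and dKO, 13 of the 28 were higher and 1, Oas1a, lower, against 6 higher and 9 lower of the 23 other interferon-gamma targets. With the liver dispersion 1 and 3 calls were left in this last comparison.

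Genes of proteins that place the GTPases on vacuoles, chiefly the autophagy conjugation system, moved by small amounts. Of 13 tested, 8 were higher and none lower in tKO and 8 higher and 3 lower in dKO, with medians of 0.16 and 0.14 log2 and no call left with the liver dispersion. Sqstm1, a ubiquitin-binding adaptor, had the largest change of them in tKO, 0.50, and rose by 0.08 in dKO against WT. Of 6 tested inflammasome genes, 4 were higher and 1, Casp8, lower in tKO, and 4 were higher in dKO. One of the 4, Casp4, the mouse gene of caspase-11, passed the filter only through tKO and dKO, with 163, 127 and 12 expected counts over the tKO, dKO and WT libraries, and 3 higher remain without it in each. Il18bp, an inhibitor of interleukin-18, rose by 1.97 log2 in tKO and 1.78 in dKO. With the liver dispersion 2 and 3 calls were left in tKO and dKO, counted over all 6 tested inflammasome genes with Casp4 among them. In SMSrKO against WT liver, edgeR called no gene of any of these lists, and 7 had an unadjusted p under 0.05, among them Gm4951, Irf9 (0.24), Jak1 (−0.24) and Il1b (−0.72). Macrophage markers summed to 806.6 to 2078 CPM in SMSrKO and 1403 to 1683 in WT liver, and no cell type marker was called there.

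**Figure D5:**
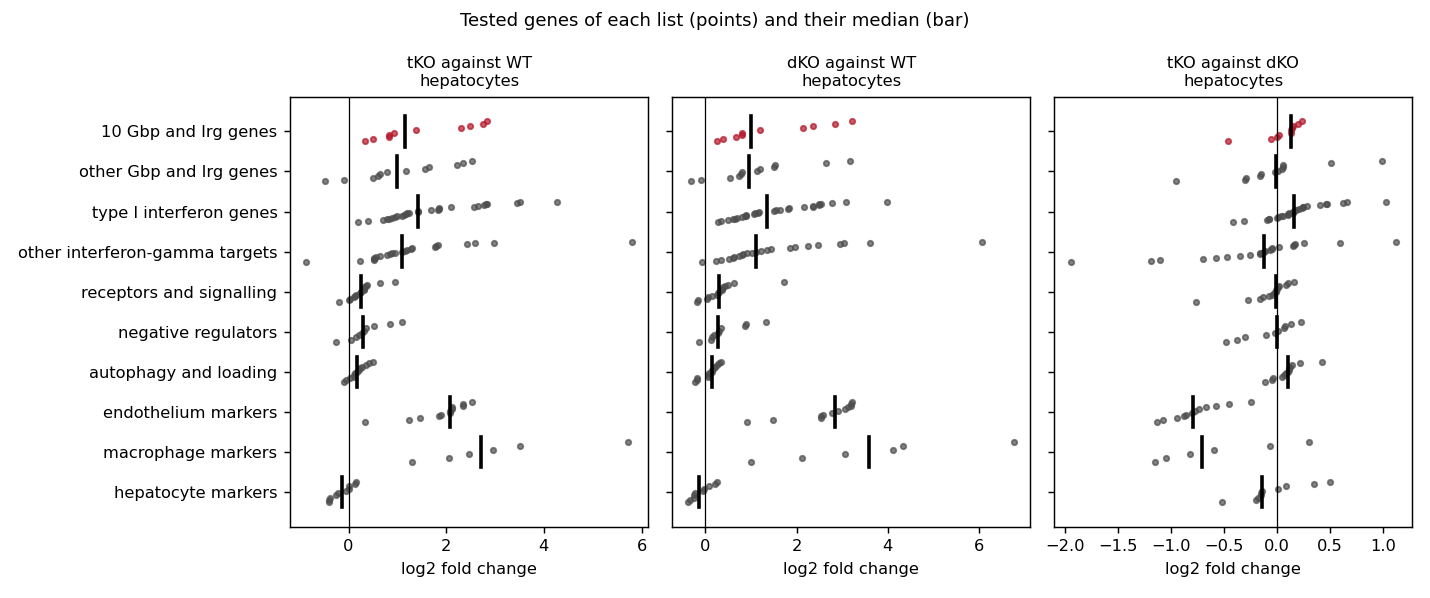
Log2 fold changes of the tested genes of each list (points) and their median (black bar) in tKO against WT, dKO against WT and tKO against dKO hepatocytes, the last panel on a narrower axis. The 10 genes (red) have medians of 1.16, 0.998 and 0.13, and the endothelium markers 2.08, 2.85 and −0.79. Gbp5, Clec4g and Flt1 passed the count filter only through tKO and dKO. Without them the medians in tKO and dKO against WT are 0.934 and 0.806 for the GTPases and 2.091 and 2.984 for the endothelium markers. Some other lists hold genes with under 10 counts in every WT library, among them 4 of the 6 tested macrophage markers.

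RNA of other cell types differed between the hepatocyte groups beside these results. The 12 endothelium markers summed to 102 to 110.4 CPM in tKO, 175 to 195 in dKO and 27.3 to 30.4 in WT. Against WT, 11 of them were higher in tKO and 12 in dKO. Clec4g and Flt1 had under 10 counts in every WT library and passed the filter only through tKO and dKO, and 9 and 10 remain without them. Lyve1 and Tek, with 18 and 17 expected counts over the WT libraries, also could not have passed on WT alone, and they are kept in the 9 and 10. Between tKO and dKO 10 were lower and none higher, where 15.2% of all tested genes were called lower and 14.3% higher. The 12 macrophage markers summed to 366.5 to 388 CPM in tKO, 323 to 341 in dKO and 121 to 136 in WT. Most of this was Mpeg1 and Cd68, with 3395 and 7210 expected counts in tKO, 3404 and 5618 in dKO and 773 and 2768 in WT. Unlike the sum, the 6 tested macrophage markers had a median of −0.706 log2 in tKO against dKO, with 1 higher and 2 lower. C1qa and C1qc had under 10 counts in every tKO library, and without them 1 was higher and 1 lower, with a median of −0.328. The Kupffer cell markers Clec4f and Vsig4 had 24 and 5 counts in tKO, 28 and 5 in dKO and 2 and 0 in WT. The 10 stellate cell markers summed to 33.9 to 37.0, 54.0 to 59.4 and 15.8 to 19.8 CPM in tKO, dKO and WT. Most of the WT sum was Reln, with 484 expected counts in WT and 515 in dKO. Dcn, which passed the filter only through tKO and dKO, had 449 expected counts in tKO, 811 in dKO and 12 in WT. T and natural killer cell markers, the textbook source of interferon-gamma, summed to 0.621 to 1.05, 0.532 to 0.96 and 0.323 to 0.542 CPM, none of the 13 passed the filter, and Nkg7, Klrb1c, Ncr1 and Prf1 were not listed. The 5 B cell markers, the 6 neutrophil and the 5 dendritic cell markers summed to at most 1.29, 1.89 and 5.61 CPM, and 5 cholangiocyte markers to 249 to 266, 373 to 395 and 246 to 261 CPM. Of these 5 markers, Sox9 had 5753 expected counts in dKO and 2143 in WT, and Spp1 had 4952 and 4862. In tKO against WT 3 of the 5 were tested, with 1 higher and 1 lower, from −0.958 to 1.073 log2. The 10 hepatocyte markers summed to 48840 to 50780 CPM in tKO, 53540 to 54500 in dKO and 60290 to 62380 in WT. In bulk RNA, more cells of a type and more RNA per cell cannot be told apart, and the part of these cells in the rise of the GTPases was not tested.

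The genes with the profile closest to the mean of the 10 were named by the root mean square difference of centred log2 CPM. Over the 9 hepatocyte libraries, among 11277 genes, these were Tgtp1 (0.0366), Ifi44 (0.0761), Gadd45g (0.0915), Hcar2 (0.0986) and Irf7 (0.105). The values of Tgtp1 are uncertain because Tgtp2 is a near-identical copy. Of the 10 themselves, Gbp6 lay closest to the mean at 0.116 and Gbp5 farthest at 0.69. Over the 8 liver libraries, among 13190 genes, they were H2-T23 (0.0835), Rab43 (0.0852), Dcakd (0.0962), Stk35 (0.0982) and Acads (0.0994), and the 10 lay at 0.139 (Iigp1) to 0.417 (Gbp6).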

How the data were processed

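RNA was measured by sequencing in 8 liver and 9 hepatocyte libraries, grouped by their labels. For liver, the authors deposited whole-number counts per Ensembl gene and a TPM table, and for hepatocytes expected counts and FPKM per Entrez gene, which list only genes above 0. Per the submitters' processing notes, the tools were DESeq2 1.30.1, STAR 2.5.2b, Bowtie2 2.2.5 and Trimmomatic 0.36, with the builds mm10 and GRCm38; which tool did what, how reads were counted and whether strand was used is not given in the sources used here. Strand setting and multi-mapping could therefore change the values of overlapping or similar genes.

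Expected counts (6.25% not whole) were rounded. Low genes were removed by filterByExpr at a minimum count of 10, and TMM set the library scale. The test was the robust quasi-likelihood F test of edgeR 4.0.16 (limma 3.58.1, R 4.3.3) with Benjamini-Hochberg adjustment over all tested genes, threshold 0.05, without a fold minimum. Each experiment was 1 fit. SE was taken as the size of the log2 fold change over √F. CPM of single genes is TMM-scaled, and CPM summed over a list is relative to the library total. The members and 18 gene lists were chosen with earlier results of these data known. Named genes were the 10 members and up to 4 genes with the smallest p of each pathway list in each contrast. Any gene of the ligand, receptor and other-family lists and the 5 genes of nearest profile per experiment could also be named. Others named are cell type markers and the targeted genes. Chosen after their values were seen were single lower genes, genes that needed tKO and dKO to pass the filter, Gm43302, Mpeg1, Cd68, Sqstm1, Nos2, Oas1a and Casp8. Genes said to have passed only through tKO and dKO had under 10 counts in every WT library. The filter asks for about 10 counts in as many libraries as a group holds. Genes with some WT library above that can therefore also have needed tKO and dKO, and those named as such may not be all. Alternatives were DESeq2 1.42.0, RLE factors, library totals, no filter, leaving out each library, only the 2 groups compared, and the liver common dispersion in a likelihood ratio test. The tests were tried on simulated data. In the liver setting 16.4%, 58.2% and 84.8% of changes of 1.5, 2 and 4 fold were called, and 16 of 122 calls were false. In the setting of dKO against WT the shares were 86.6%, 83.6% and 100%, and 6 of 186 calls were false. Small changes in liver could therefore have been missed. The values of 1 signalling gene are not reported here. Sequences are RefSeq's (GRCm38.p6), and shared windows came from GENCODE M21 transcripts. Python 3.11.15, pandas 2.3.3, numpy 2.4.6, scipy 1.17.1 and matplotlib 3.10.9 made tables and figures.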

Additional observations from a re-analysis of the deposited data

Results flagged for a closer look

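In liver, WT 1 stood apart from the other WT libraries for 2 of the 10 genes, by the gap to its nearest neighbour relative to the range of the group. Gbp6 stood at 0.976 TPM in WT 1 against 3.37 to 3.72 in the other WT libraries. Iigp1 stood at 108 TPM in WT 1 against 172 to 183 in the others. Such a gap is found by chance in about 1 of 20 groups, and 22 groups of values were examined. WT 1 was also the deepest liver library, with 47351126 counts. Without it the log2 difference between SMSrKO and WT was −0.01 for Iigp1 and −0.36 for Gbp6, and no member was called in either case.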

How the results depend on the processing

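With Gbp5 set aside, the other 9 calls against WT hepatocytes kept their direction under every alternative. Only the liver dispersion ended any of them, those of Irgm1, Irgm2 and Iigp1 in dKO and of Irgm2 and Iigp1 in tKO. Gbp5 passed the filter only through tKO and dKO, so its calls were not counted. The median log2 fold change of all 10, with Gbp5 among them, was 0.957 to 1.03 in dKO and 1.094 to 1.2 in tKO when 1 library was left out. It was lowest in tKO without tKO 7. Without Gbp5 the medians were lower, 0.806 in dKO and 0.934 in tKO with all libraries kept. Between tKO and dKO the number called was 4 to 6 with 1 library left out, 4 in DESeq2, 5 with only the 2 groups and 0 with the liver dispersion. Gbp9 turned to −0.002 in DESeq2 and with RLE factors and ranged from −0.107 to 0.058 with 1 library left out, and Igtp from −0.001 to 0.051. In liver 0 of 10 were called under every alternative, and the median ranged from −0.046 (without SMSrKO 5) to 0.173. With 1 liver library left out, values that changed sign ranged from −0.172 to 0.137 for Gbp2, −0.23 to 0.177 for Gbp3, −0.011 to 0.375 for Gbp5, −0.357 to 0.083 for Gbp6, −0.055 to 0.192 for Gbp7, −0.049 to 0.128 for Irgm1 and −0.011 to 0.184 for Iigp1. Gbp2 was 0.00 in DESeq2 and 0.001 with RLE factors, and with library totals Gbp3 was −0.03 and Irgm1 −0.018. The cause of these changes was not tested. No paired analysis was possible because the groups share no replicate numbers. Low counts limit Gbp5 in hepatocytes, and the spread between 4 libraries limits the liver intervals.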
